A study of Epimedium pubescens with 12 samples.

Results

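novel_56 and novel_61 are 2 of the 220 miRNAs in a small RNA table of Epimedium pubescens leaves, a medicinal plant of the barberry family. Both are predicted miRNAs, inferred by the study from hairpin-forming sequence and known by a running number. They were chosen by their measured phosphorus response, because both were higher under phosphorus deficiency at 30d and again at 90d. The phosphorus differences given below are therefore a description of how the pair was picked and carry no test. Seedlings were grown in sand culture with a Hoagland-type solution containing 0 mmol/L phosphate (-P) or 1 mmol/L phosphate (+P), and leaves were taken after 30 days or 90 days of treatment. The 4 groups, 30d -P, 30d +P, 90d -P and 90d +P, were each sequenced as 3 libraries, lettered A, B and C. By the study's recipe the -P and +P solutions also differed in their nitrate, sodium, potassium and sulphate salts, so these and phosphate cannot be told apart. The table holds miRNAs only, so leaf identity could not be checked against marker genes.

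A plant miRNA is cut from a hairpin precursor by a Dicer-like enzyme and loaded into an Argonaute protein, where it guides the cleavage or repression of mRNAs with matching sequence. In Arabidopsis, miR399 is made when shoots run short of phosphate and lowers PHO2, an enzyme that marks phosphate transporters for breakdown. No family, target or role is known here for novel_56 or novel_61. Their mature sequences and hairpin positions were not analysed here, so it was not tested whether the pair share a precursor, sequence or reads.

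Library totals ranged from 380316 to 1466897 miRNA reads, and both miRNAs were detected in all 12 libraries. novel_56 had between 10 and 751 reads in a library (3383 in all), and novel_61 between 6 and 470 (1581 in all). Levels below are in TPM, which here is the read count scaled to a common library total, with no term for length. Intervals on single libraries are exact Clopper-Pearson 95% intervals and cover counting error only. On the first principal component of all tested miRNAs, which held 30.1% of the variance, the A and B libraries of 30d lay between -14.1 and -9.63 and the 90d libraries between 2.17 and 12.3. The replicate C libraries of 30d stood apart from these A and B libraries, with scores of 3.30 under -P and 0.155 under +P. Differences that rest on them are given below with and without them. In leaf RNA of mixed cells, fewer cells of a type and less of a miRNA per cell cannot be told apart.

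novel_56 was the more abundant of the pair, with a mean of 330.0 TPM over the 12 libraries, which placed it 44th of 220 miRNAs and 37th of the 198 predicted ones. In 30d -P it was at 776, 980 and 209 TPM in replicates A, B and C, and in 30d +P at 120, 371 and 97.5 TPM. The groups overlapped, because 30d -P replicate C lay below 30d +P replicate B. In 90d -P it was at 384, 392 and 515 TPM, and in 90d +P at 8.32, 47.9 and 58.4 TPM. Here the lowest -P library was 6.57 times the highest +P library. Replicates were closest in 90d -P, with a coefficient of variation of 17.2%, against 61.0% in 30d -P, 77.3% in 30d +P and 69.1% in 90d +P. The outlying library of 90d +P was replicate A, where 10 reads gave 8.32 TPM (3.99 to 15.3), below the interval of replicate B (36.4 to 62.0).

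novel_61 had a mean of 136 TPM and ranked 59th of 220 and 51st among the predicted miRNAs. In 30d -P it was at 133, 359 and 111 TPM in replicates A, B and C, and in 30d +P at 52.2, 94.7 and 21.1 TPM. All 3 of the -P libraries lay above all 3 of the +P libraries, but the lowest and highest were only 1.17-fold apart. In 90d -P it was at 325, 151 and 339 TPM, and in 90d +P at 4.99, 13.2 and 24.2 TPM. At this day the lowest -P library was 6.23 times the highest +P library. The smallest value, 4.99 TPM in 90d +P replicate A, rested on 6 reads (1.83 to 10.9 TPM).

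**Figure D1:**
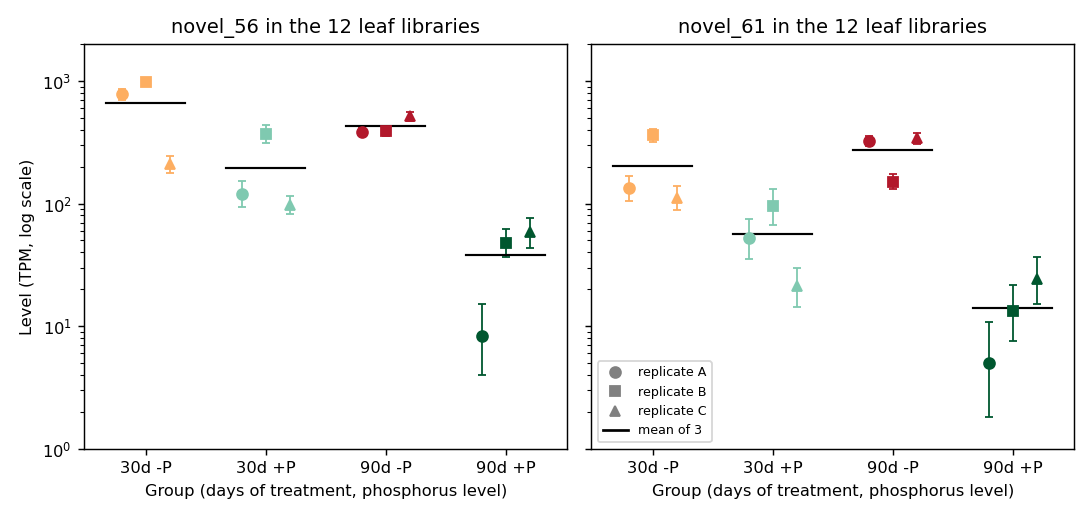
Level of novel_56 and novel_61 in each library, in TPM on a log scale, by group. Symbols mark replicates A, B and C, error bars are exact 95% intervals for counting error, and black lines are means of 3 libraries. Both miRNAs were lowest in 90d +P, at 8.32 to 58.4 TPM and 4.99 to 24.2 TPM, and no 90d -P library was below 151 TPM.

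In order of mean level, the 30d -P group came first for novel_56 with 655 ± 399 TPM (SD, n = 3). It was followed by 90d -P with 430 ± 73.8 TPM, 30d +P with 196 ± 152 TPM and 90d +P with 38.2 ± 26.4 TPM. The 30d -P and 90d -P groups overlapped. 90d -P and 30d +P did not overlap, though they came within 384 against 371 TPM. In TPM every 30d +P library lay above every 90d +P library. After edgeR's TMM scaling, described below, the +P groups overlapped, with 64.9 CPM in 30d +P replicate A and 84.9 CPM in 90d +P replicate C. The share of all tested miRNAs separated in this way is not given here. For novel_61 the order began with 90d -P at 272 ± 105 TPM (SD, n = 3), and went on with 30d -P (201 ± 137 TPM), 30d +P (56.0 ± 36.9 TPM) and 90d +P (14.2 ± 9.66 TPM). Its libraries overlapped within -P and within +P, while no +P library of either day reached the lowest -P library, at 111 TPM.

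The values that picked the pair came from 1 edgeR quasi-likelihood fit of all 4 groups over the 137 miRNAs that passed a filter on low counts. Both miRNAs met the filter in 11 of 12 libraries, so neither entered the fit only through its -P libraries. The rule took the study's thresholds for miRNAs, an unadjusted p under 0.05 with a log2 fold change of at least 1. The study applied them to DESeq2 results, and here they were applied to the edgeR fit. At 30d, novel_56 had a log2 fold change of 2.03 (SE 0.91) between -P and +P with an unadjusted p of 0.0435, and novel_61 had 2.35 (SE 0.93) with 0.0244. At 90d the values were 3.11 (SE 0.95) with 0.00591 for novel_56 and 3.85 (SE 0.99) with 0.00173 for novel_61. Over all tested miRNAs, the rule called 2.19% higher under -P at 30d and 4.38% at 90d. The 2.19% called at both days was this pair and novel_36. Neither member passed after Benjamini-Hochberg adjustment over the 137 miRNAs in edgeR, with adjusted p values of 0.962 for both at 30d, and of 0.135 for novel_56 and 0.0535 for novel_61 at 90d. Other tools put the 90d values on the other side of 0.05, with adjusted p of 0.0471 and 0.0197 by the newer edgeR method and 0.00118 and 1.62e-05 by DESeq2, the tool of the study, on all 12 libraries. These too are values of the contrasts that chose the pair.

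novel_56 was the member nearest the edge of the rule, through its 30d value. The nearest miRNA outside was novel_51, with log2 fold changes of 1.80 at 30d and 4.75 at 90d and an unadjusted p of 0.121 at 30d. Only 6 of the 137 miRNAs had a fitted log2 fold change of at least 1 at both days, namely novel_56, novel_61, novel_36, novel_51, novel_73 and aqc-miR399. All -P libraries lay above all +P libraries in TPM for 0.730% of tested miRNAs at 30d, which was novel_61 alone. At 90d this held for 16.1%, or 22 miRNAs including both members. The reverse, all +P above all -P, held for 5 miRNAs at 30d and 9 at 90d. TMM is the edgeR normalization that corrects for a few abundant miRNAs taking up reads. On its scale -P lay above for 3 miRNAs at 30d and 18 at 90d, and +P for 1 and 18. The members stayed on the same side at both days.

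**Figure D2:**
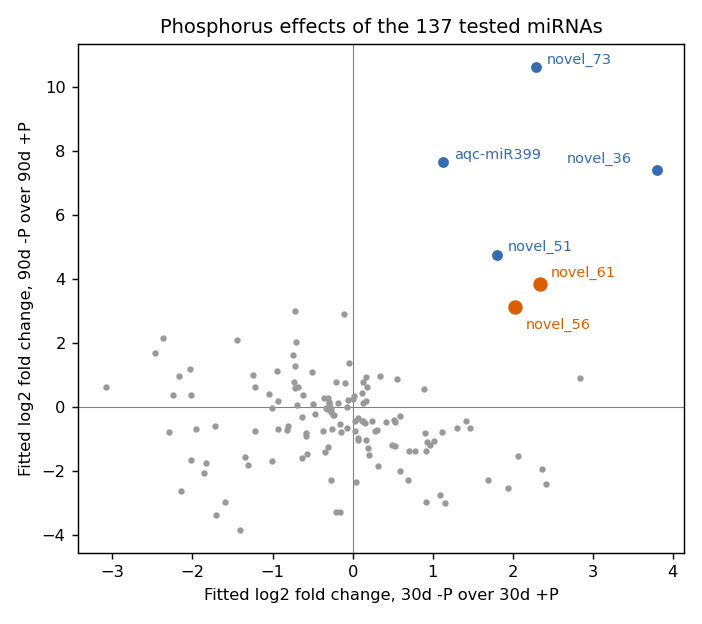
Fitted log2 fold change of -P over +P at 30d (horizontal) and 90d (vertical) for the 137 tested miRNAs, with novel_56 and novel_61 in orange. The pair lie at 2.03 and 2.35 at 30d and at 3.11 and 3.85 at 90d, among the 6 miRNAs above 1 at both days. The heights of novel_73 and aqc-miR399 depend on the model's prior count, because both had 0 reads in 90d +P.

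Both responses were larger in size at 90d than at 30d. In mean TPM, novel_56 was 3.34-fold higher under -P at 30d and 11.3-fold higher at 90d, and novel_61 was 3.59-fold and 19.2-fold higher. In mean TMM-scaled CPM the days were closer, at 4.08-fold and 8.63-fold for novel_56 and 5.05-fold and 14.4-fold for novel_61. The fitted difference between the days was 1.08 (SE 1.25) on the log2 scale for novel_56 and 1.50 (SE 1.26) for novel_61, so for each the difference was about as large as its own error. It is made of the values that chose the pair and was not tested. The groups moved unequally between the days. Under +P the mean TPM of novel_56 was 5.13-fold lower at 90d than at 30d, and that of novel_61 3.96-fold lower. Under -P, novel_56 was 1.52-fold lower at 90d and novel_61 was 1.35-fold higher. These sizes depend on scaling. In the fit with TMM, the log2 fold changes of 90d over 30d under +P were -1.60 (SE 0.91) and -1.12 (SE 0.91). Under -P they were -0.52 (SE 0.88) for novel_56 and 0.38 (SE 0.88) for novel_61. These share libraries with the contrasts that chose the pair and were not tested.

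Single libraries carried part of the 30d values. Without 30d -P replicate B, which held the highest level of both miRNAs at that day, the log2 fold change of novel_61 was 1.44 in place of 2.35 and that of novel_56 was 1.46 in place of 2.03. Without 30d +P replicate B, the highest +P library, novel_56 stood at 2.75. Without both replicate C libraries of 30d the 30d values were 2.38 for novel_56 and 2.19 for novel_61. At 90d, leaving out +P replicate C raised the value of novel_61 to 4.57, and leaving out +P replicate A gave 2.59 for novel_56 and 3.42 for novel_61. Compared by replicate letter at 30d, a pairing that was not tested, the -P to +P ratio of novel_56 in TPM was 6.46, 2.64 and 2.15 in A, B and C. For novel_61 it was 2.55, 3.79 and 5.26, so the letter with the largest ratio differed between the pair. The order of the letters depends on scaling. In TMM-scaled CPM, novel_61 was at 80.3, 452 and 110 in 30d -P and at 28.2, 76.4 and 22.7 in 30d +P. On that scale its largest ratio was in B. Scaling mattered less for the direction than for the size. With library totals alone the 30d value of novel_56 was 1.74 (SE 0.86), in place of 2.03 (SE 0.91). Whether each member still met the choosing rule under the alternatives is not given here. TMM factors ran from 0.688 to 1.85 and lowered novel_56 in 30d -P replicate A from 776 TPM to 468 TMM-scaled CPM. With library totals alone the median of all tested miRNAs shifted by -0.26 at 30d and 0.42 at 90d. Relative to that median, novel_56 was at 2.19 (TMM) or 2.16 (totals) at 30d and 3.55 or 3.51 at 90d, and novel_61 was at 2.50 or 2.27 and 4.29 or 4.28.

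**Figure D3:**
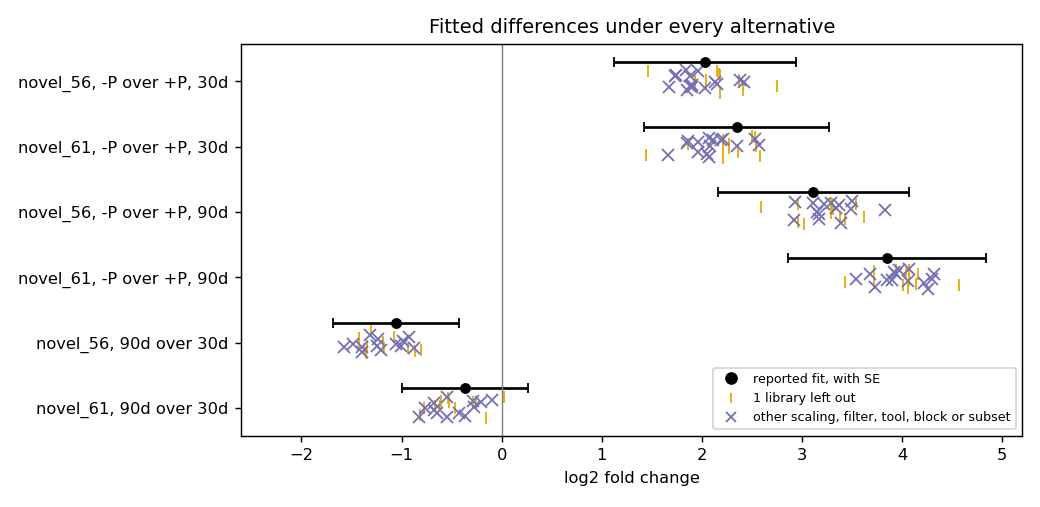
Fitted log2 fold changes of novel_56 and novel_61 for -P over +P at each day and for 90d over 30d. Black points are the reported fit with its SE, yellow ticks leave out 1 library, and purple crosses use another scaling, filter, tool, replicate block or set of libraries, or the TPM scale. All phosphorus values lie above 0, from 1.44 to 4.57, and the time values of novel_61 run from -0.82 to 0.02. The phosphorus values are those of the contrasts that chose the pair.

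The effect of time gives -P and +P equal weight at each day. With equal spread in all groups it would be independent of the contrasts that chose the pair. For novel_56 the SD of log2 CPM was 0.0696 in 90d -P and 1.38 in 90d +P (n = 3 each). For novel_61 it was 0.573 and 1.00. The choice also used the spread within groups, so the time tests below are not wholly free of it. Averaged over both phosphorus levels, novel_56 had a log2 fold change of -1.06 (SE 0.63, 95% interval -2.44 to 0.32) at 90d against 30d. edgeR's quasi-likelihood test with adjustment over all 137 miRNAs gave it an adjusted p of 0.255. novel_61 had a log2 fold change of -0.37 (SE 0.63, 95% interval -1.74 to 1.00), with an adjusted p of 0.741. No time difference larger than the spread between replicates was detected for either miRNA. The test called 0% of the 137 miRNAs, while 42 had an unadjusted p under 0.05, 21 higher and 21 lower at 90d, and DESeq2 called 36. An exact two-sided permutation test of the day within each phosphorus level on log2(TPM + 1) gave p = 0.055 for novel_56 and p = 0.32 for novel_61, where the smallest possible value is 0.005. In TPM, novel_56 was lower at 90d in all 9 pairs of +P libraries and in 6 of 9 pairs of -P libraries. For novel_61 this held in 8 of 9 pairs under +P and 3 of 9 under -P. These counts depend on scaling. In TMM-scaled CPM, novel_56 was at 64.9 in 30d +P replicate A and at 84.9 in 90d +P replicate C. The median time difference of all tested miRNAs was -0.58 with library totals alone and -0.11 with TMM. Pair counts over all tested miRNAs are not given here. Without both replicate C libraries of 30d, the time difference of novel_56 was -1.58 with an adjusted p of 0.0454 in edgeR, but removing the 30d libraries that most resemble 90d enlarges a difference between the days by construction. For novel_61 it was -0.82 with an adjusted p of 0.301.

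Across the 12 libraries novel_56 and novel_61 followed each other more closely than either followed any other tested miRNA. The Pearson r of their log2 CPM was 0.930 and the Spearman rho 0.895, against a median r of -0.01 between novel_56 and the other 136 miRNAs and 0.03 for novel_61. These points are libraries of 4 groups in which both were picked to be high under -P, so part of the likeness is given by the choice. For deviations from the group means the r was 0.821. The choice used these deviations in part, since the unadjusted p of each miRNA rests on its spread within groups. By this measure novel_56 was the closest of 136 miRNAs to novel_61, and novel_61 the 4th closest to novel_56, behind aqc-miR171f at 0.888. The deviations share library totals and scaling, which can move miRNAs together, and this part was not tested.

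The ratio of novel_56 to novel_61 reads does not depend on library scaling. It was above 1 in every library and ranged from 1.18 to 5.83. In 90d +P replicate A, with 10 against 6 reads, the 95% interval for counting error was 0.549 to 5.58 and included 1. In 30d -P the ratio was 5.83, 2.73 and 1.88 in A, B and C, and in 30d +P 2.30, 3.92 and 4.61. In 90d -P it was 1.18, 2.59 and 1.52, and in 90d +P 1.67, 3.62 and 2.41. The 4 groups overlapped, with means of 3.48 ± 2.08 (SD, n = 3), 3.61 ± 1.19, 1.76 ± 0.738 and 2.57 ± 0.989 in the same order. Within 30d -P the interval for counting error of A, 4.52 to 7.61, met neither that of B, 2.38 to 3.15, nor that of C, 1.42 to 2.51. The intervals of B and C met. These intervals leave out the spread between libraries and the copying of molecules by PCR.

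**Figure D4:**
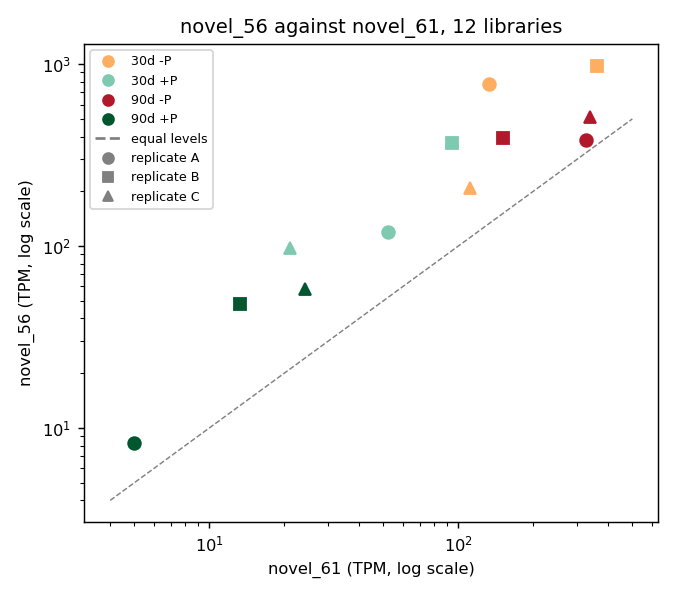
Level of novel_56 (vertical) against novel_61 (horizontal) in the 12 libraries, in TPM on log scales. Colours mark groups and symbols replicates, and the dashed line marks equal levels. Every library lies above the line, with read ratios from 1.18 to 5.83, and the 90d +P libraries are among the lowest for both.

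By r over the 12 libraries, which the choice of the pair raises, the miRNA next most like both was aqc-miR399, the phosphate starvation miRNA, at 0.848 with novel_56 and 0.893 with novel_61. For deviations from group means its r was 0.639 and 0.626, and it ranked only 10th for novel_56 and 14th for novel_61 of 136 miRNAs. aqc-miR399 was far scarcer, with 9.38, 19.6 and 4.27 TPM in the A, B and C libraries of 30d -P and 3.48, 7.89 and 6.82 TPM in those of 30d +P. At 90d it had 22.8, 20.5 and 35.2 TPM under -P and no read in any +P library. As for novel_56 and novel_61, its highest 30d -P level was in replicate B and its lowest group was 90d +P. In 30d -P, 3 reads amount to 5.63, 3.92 and 4.27 TPM in A, B and C. The order of its replicates and its r of deviations therefore rest on few reads. Next in likeness came novel_51 for novel_56 (r of 0.805 over 12 libraries) and novel_73 for novel_61 (r of 0.854 over 12 libraries). These are descriptions over libraries in 4 groups, and miRNAs with a phosphorus difference resemble each other by that alone.

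novel_36, the other miRNA inside the rule, was less like the pair among replicates at 30d. In -P leaves it was lowest in replicate B at both days, at 269 TPM in 30d and 141 TPM in 90d, against at least 1579 TPM in the A and C libraries. At 30d -P, novel_56 and novel_61 were instead highest in replicate B. At 90d -P novel_61 had the same order as novel_36, with its lowest level in replicate B (151 TPM) and its highest in C (339 TPM). The r of deviations from group means between novel_36 and the pair was -0.34 for novel_56 and -0.05 for novel_61, over 12 libraries.

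For comparison with miRNAs of known families, 15 families with reported roles in nutrient responses or leaf development in other plants were listed. They were miR399, miR827, miR2111, miR778, miR398, miR408, miR395, miR397, miR169, miR156, miR159, miR160, miR164, miR167 and miR171. The table held 12 members from 8 of them, of which 8 were tested. By the rule used to choose the pair, 0 of these 8 passed in either direction at 30d, where it called 2.19% of all tested miRNAs higher and 1.46% lower. Their median log2 fold change was -0.18 against -0.15 for all tested miRNAs. At 90d, 1 of 8 was higher, aqc-miR399, and 0 were lower, where the rule called 4.38% of all tested miRNAs higher and 3.65% lower. Their median was 0.41 against -0.44. With a log2 fold change of 2.03 and 2.35, novel_56 and novel_61 ranked 8th and 5th from the highest of 137 miRNAs at 30d, and 6th and 5th at 90d.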

How the data were processed

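Small RNA was sequenced from leaf RNA with the NEBNext small RNA kit, 3 libraries per group. The authors removed low-quality reads, adapters and other RNA classes, and predicted miRNAs with miREvo and mirdeep2. The submitters' processing notes name Bowtie and DESeq2 without versions. The genome build is not given in the sources used here. Per library, the authors deposited raw read counts, and TPM computed as counts scaled to each library's total. The 4 columns of group means were not used, and 0 per-sample columns were left out.

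Counts were fitted with edgeR 4.0.16 in R 4.3.3 (TMM, quasi-likelihood, older method, 4 groups, 12 libraries) after filterByExpr at a minimum count of 10, which kept 137 of 220 miRNAs. The SE is the log2 fold change divided by the square root of F. log2 CPM used a prior count of 2. Scripts were tested on simulated data. At 30d, deviations from group means correlated between -P and +P libraries of the same letter at 0.455, 0.236 and 0.211 (A, B, C). At 90d these correlations were 0.248, -0.267 and -0.159. Unlike letters were not compared, so whether the letters pair the libraries was not tested. Named miRNAs were the pair, others inside or nearest the rule, the 3 most alike by r, and the listed families. Members, lists and tests were chosen with earlier results of these data known. The study's methods give 3 replications of 12 seedlings per treatment. How these map to A, B and C, and whether both days sampled the same sets, is not stated. Replicates were taken as separate sets of seedlings, and the reported time tests treated the days as unpaired.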

Additional observations from a re-analysis of the deposited data

How the results depend on the processing

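The phosphorus differences kept their direction in all 27 alternatives at 30d and all 26 at 90d, from 1.46 to 2.75 (novel_56) and 1.44 to 2.58 (novel_61) on the log2 scale at 30d, and from 2.59 to 3.83 and 3.42 to 4.57 at 90d. The adjusted p of the 90d difference was under 0.05 in 6 of 26 alternatives for novel_56 and 15 of 26 for novel_61, and in 0 of 27 for either at 30d. These contrasts chose the pair and the alternatives reuse the same libraries. Neither the kept direction nor these counts are therefore support for a phosphorus response. With the replicate block over 12 libraries the 30d values were 2.13 and 2.21, and on the 6 libraries of 30d 1.88 and 2.05. No call by adjusted p differed from the fit without the block. The time difference of novel_56 stayed negative, from -1.43 to -0.81 with 1 library left out and at -1.58 without both replicate C libraries of 30d (chosen after seeing the data). That of novel_61 ran from -0.82 to 0.02 with 1 library left out and turned positive (0.0193) without 30d -P replicate B, which held its highest 30d level. The number of miRNAs called for time was 0 in the reported fit, 4 with a stricter filter (10 counts in 6 libraries), 13 with the newer edgeR method, 36 with DESeq2, 0 to 24 with 1 library left out (24 without 30d +P replicate C) and 43 without both replicate C libraries of 30d. The cause was not tested. With 6 to 58 reads of each member in the 90d +P libraries, counting error limits how precisely the size of the 90d differences is known.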

Other observations

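In deviations from the group means, the miRNA closest to novel_56 was aqc-miR171f, a family that targets GRAS-domain transcription factors in Arabidopsis, with an r of 0.888 over 12 libraries (0.762 with novel_61). It was singled out after its values were seen. At 30d its level was not higher under -P, with 91.9, 180 and 48.4 TPM in 30d -P and 141, 365 and 150 TPM in 30d +P in the order A, B, C. The fitted log2 difference at 30d was -0.69 (SE 0.90), and edgeR gave an adjusted p of 0.986. At 90d its direction was that of the pair, with 39.5, 85.8 and 62.6 TPM under -P against 10.8, 25.6 and 57.3 TPM under +P. The groups overlapped, and the fitted log2 difference was 0.61 (SE 0.90) with an adjusted p of 0.822 in edgeR. Over all libraries its r with novel_56 was 0.563. At 30d both were highest in replicate B of each phosphorus level, and at 90d +P both were lowest in replicate A. At 90d -P the highest library differed, with aqc-miR171f highest in B (85.8 TPM) and novel_56 in C (515 TPM). Library totals and scaling are common to both, and their part was not tested.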
